A study of Mus musculus with 10 samples.

Results

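The cytosolic ribosomal protein genes, which encode the protein part of the ribosome outside the mitochondria, were followed through 5 cell types of the mouse cochlea. They were taken by symbol, as all listed genes that begin with Rpl or Rps and a digit, together with Rpsa, Rplp0, Rplp1 and Rplp2. Symbols of pseudogenes (those that hold -ps) and of the S6 kinases (Rps6k) were left out. This gave 86 of the 34590 genes in the count files, 52 of them with Rpl symbols of the large subunit and 34 with Rps symbols of the small subunit. Reads were counted on 84 members in at least 1 library, 80 members had at least 10 counts in every library, and 83 passed the filter on low counts and were tested. The rule also takes in Rps19bp1, which encodes a protein that binds the ribosomal protein Rps19 and is not itself part of the ribosome.

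A ribosome holds one copy of most of these proteins beside the ribosomal RNAs, so that the cell has to make them in matched amounts. Their mRNAs are short and abundant, and most begin with a run of pyrimidines, the terminal oligopyrimidine (TOP) motif, through which translation of the whole group is turned up or down by mTOR signalling. Loss of single members is known to cause anaemias and developmental disease, and several members have paralogs that can take their place in some tissues.

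The libraries were made from fluorescent cells picked by hand after dissociation, with 2 libraries of each cell type, which the study describes as biological duplicates. Supporting cells (SCs, P26; replicate 12 is titled P27) are the pillar and Deiters' cells that carry Fgfr3iCreER and a Cre-dependent Rosa26-CAG tdTomato reporter, and converted hair cells (cHCs, P33) came from mice that carried in addition Atoh1-HA and alpha9 AChR-EGFP, the reporter used to pick them. Outer hair cells (OHCs) at P7 and P22 are labelled as prestin-YFP knock-in heterozygotes, whereas the study's own summary gives a Prestin-CreERT2 line with tdTomato for P7, and the titles give P21 for one library of the P22 group and P22 for the other, by which these libraries are named here. Inner hair cells (IHCs, P74; the titles give P74 and P75, by which the libraries are named) came from mice with Pvalb-Cre, written Pval-Cre in the labels, and the same tdTomato reporter. SCs and cHCs had received tamoxifen, and the same summary gives it at P2 and P3 for OHCs (P7). The age of the animals, the mouse line and the cell type differ together between most groups. Because the libraries are pools of cells, fewer cells of a type and less RNA per cell cannot be told apart.

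The counts on genes came to between 15016129 (OHC (P7) replicate 15) and 40518766 (SC replicate 11). SCs, cHCs and OHCs (P7) carry replicate numbers of one series, 11 to 16, and OHCs (P22) and IHCs carry numbers of a second, higher series. Where 2 types come from different series, their difference and that of the series cannot be told apart. Reads outside annotated genes made up 26.5% to 41.8% of all reads in the first series and 38% to 50.4% in the second. The P21 library of OHCs (P22) stood apart, with 38.4% of its gene counts on mitochondrial genes against 18.1% to 31.8% in the other 9 libraries and a TMM factor of 0.583 against 0.930 to 1.20 (TMM is the trimmed mean of M values, edgeR's scaling of library sizes). The labelled cell types were set beside their markers. The summed level of 9 hair cell markers was 363 and 364 CPM (counts scaled to a common library size, here with TMM factors, as everywhere below) in SCs and between 4122 and 6415 CPM in the other 8 libraries, with 5006 and 5999 in cHCs and 6158 and 6415 in OHCs (P7). The summed level of Slc26a5 and Ocm was 11350 and 12030 CPM in OHCs (P22), 4255 and 4461 in OHCs (P7), 241 and 69.5 in IHCs, 103 and 25.3 in cHCs and 3.69 and 3.47 in SCs. That of Slc17a8 and Otof was 6917 and 5979 CPM in IHCs, 1171 and 1111 in OHCs (P7), 390 and 526 in OHCs (P22), 281 and 161 in cHCs and 0.664 and 0.666 in SCs. Fibroblast markers came to 382 CPM in OHC (P7) replicate 15 and 3.001 in replicate 14. The summed level of 8 SC markers was 1916 and 1413 CPM in SCs, 1160 and 877 in cHCs, 363 and 110 in OHCs (P7), 822 and 639 in IHCs and 11.0 and 9.73 in OHCs (P22), where 1 of the 8 was at 0 in each library. The summed level of 5 neuron markers was 0.797 and 2.18 CPM in SCs and between 192 and 834 CPM in the other 4 types. The part of RNA from other cells in the levels below was not tested.

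The transcription starts are shown first because the TOP motif is the sequence feature described above for most of these mRNAs. RefSeq promoters of the GRCm38.p6 build, which is not the mm9 build of the counts, were given for 64 of the 86 symbols, with 76 annotated starts. Each window below runs from 10 bases before to 20 bases from the annotated start onward, on the transcribed strand, and the capitals mark a run of a C followed by at least 4 pyrimidines (C or T) that begins within 5 bases of the annotated start. Rps27 (chr3:90213629-90213658, minus strand) had the highest level per exon length, Rps6 (chr4:86857348-86857377, minus strand) is the substrate of the S6 kinases, and Rps24 (chr14:24490668-24490697, plus strand) is a further member with such a run. The window at another annotated start of Rps24 (chr14:24490743-24490772) and that of Rps15 (chr10:80292421-80292450) held no such run and are not printed. Rps25 (chr9:44407704-44407733, plus strand) had the smallest p in the joint test, and its window and that of Rpl37a (chr1:72711250-72711279, plus strand) hold no such run. Myo7a (chr7:98119474-98119503, minus strand), the hair cell myosin, is shown as a gene outside the family.
Rps27: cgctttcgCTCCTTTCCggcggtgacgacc
Rps6: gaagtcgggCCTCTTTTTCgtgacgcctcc
Rps24: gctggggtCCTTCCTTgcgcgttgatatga
Rps25: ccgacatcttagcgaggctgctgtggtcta
Rpl37a: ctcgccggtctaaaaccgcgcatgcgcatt
Myo7a: ggcgggtggcagtgcaggctggacagctgc

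A C followed by at least 4 pyrimidines exactly at the annotated start was found at 13 of 76 starts of members (17.1%) and at 2.51% of all 32851 starts. Within 5 bases of the start it was found at 40.8% of the members' starts and at 18.3% of all starts. Only the transcribed strand was searched, and an annotated start can differ by some bases from the start used in a cell, so that a window without the run says only that these letters are not there. The 29 tested members with the run near a start had a median log2 fold change of -2.12 between OHCs (P22) and SCs, and the 32 without it had one of -1.98. Between IHCs and SCs these medians were -1.43 and -1.76.

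The family took its largest share of the reads in SCs and its smallest in OHCs (P22). Members made up 2.81% and 1.96% of the gene counts in the SC libraries, 1.72% and 1.85% in cHCs, 1.48% and 1.53% in OHCs (P7), 0.857% and 1.02% in IHCs, and 0.333% (P21 library) and 0.713% (P22 library) in OHCs (P22). The 5 cell types did not overlap in this share. After TMM scaling the summed level was 24970 ± 7507 CPM in SCs (SD, n = 2, as for the other types), 15240 ± 287 in OHCs (P7), 14950 ± 877 in cHCs, 8599 ± 1020 in IHCs and 6070 ± 493 in OHCs (P22). OHCs (P7) and cHCs, neighbours in this order, differed by less than their spread, whereas the 2 SC libraries differed from each other by more than any other pair. The mean of SCs was 4.115 times that of OHCs (P22), 2.90 times that of IHCs, 1.64 times that of OHCs (P7) and 1.67 times that of cHCs. The shares of the P21 and P22 libraries differed by more than their summed TMM-scaled levels, which were 5721 and 6418 CPM. With genes of the mitochondrial genome left out of the denominator, the share was 0.540% in the P21 library and 0.871% in the P22 library, still below the 1.06% to 3.84% of the other libraries.

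**Figure D1:**
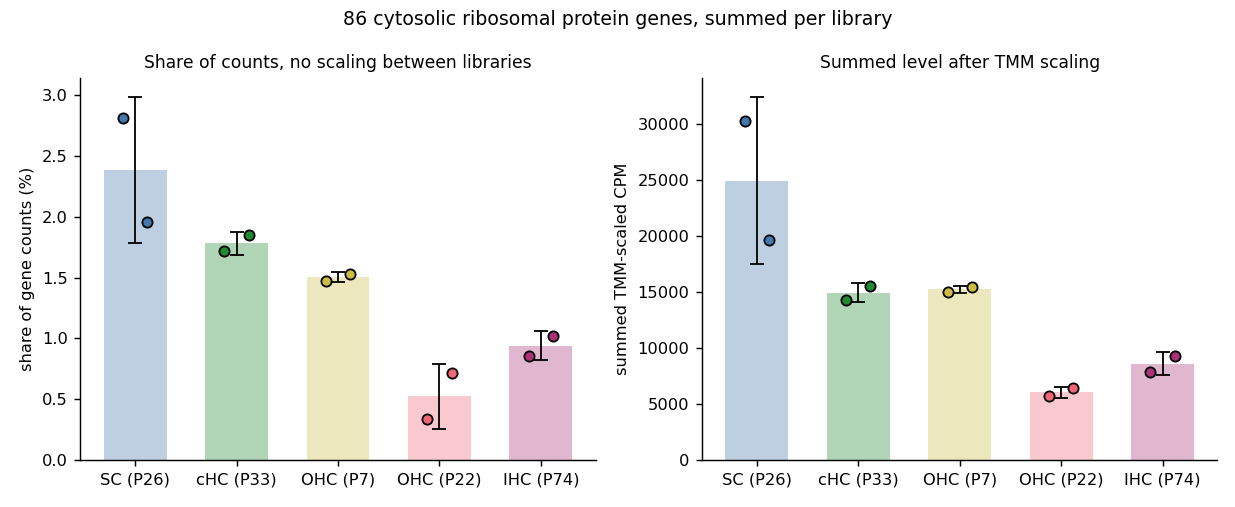
Summed reads of the 86 ribosomal protein genes in each library, as the percent of all gene counts (left) and as TMM-scaled CPM (right), with points for libraries, bars for the mean of a cell type and error bars for the SD of 2 libraries. SCs are highest and OHCs (P22) lowest in both panels. OHCs (P7) and cHCs lie side by side in the right panel, whereas both cHC libraries lie above both OHC (P7) libraries in the left.

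Most members followed the same order. Of the 83 tested, 66 had their highest mean level in SCs, 13 in OHCs (P7) and 4 in cHCs, and none (0) in OHCs (P22) or IHCs. The lowest mean was in OHCs (P22) for 71 members and in IHCs for 9. Both SC libraries lay above all 8 others in 40 members, against 7.97% of all genes tested, and both OHC (P22) libraries lay below all 8 others in 39, against 6.25% of all genes. All 4 libraries of OHCs (P22) and IHCs lay below all 6 libraries of the other types in 44 of 83 members, against 2.52% of all genes tested. That last split is also the split between the number series of the libraries.

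Across the 10 libraries, the log2 level of a member correlated with the log2 summed level of the other members with a median Pearson's r of 0.865 (a description over 10 libraries that share cell types and depth). Rps7 (r = 0.983), Rps20 (r = 0.977), Rpl28 (r = 0.966), Rpl41 (r = 0.963) and Rps25 (r = 0.959) followed it most closely. Rps18 (r = 0.133), Rps19bp1 (r = 0.180), Rpl7l1 (r = 0.286), Rps4y2 (r = 0.301) and Rpl18 (r = 0.338) followed it least. The order of members within a library was much alike in all cell types: Spearman's rho over the 83 members was 0.696 to 0.881 between replicates and 0.577 to 0.851 between libraries of different types. The 10 members with most counts held 28.2% to 35.6% of the family's counts in a library, with the highest share in the P21 library. Rpl41, the smallest ribosomal protein, took the most counts of any member in 9 of 10 libraries, 4.52% to 7.59% of the family's counts, while Rpl4 took the most in the P22 library of OHCs (P22). The files list Rpl41 but the annotation holds no model for it, so its level per length is not given.

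Per kilobase of exon, the highest means over the 10 libraries were those of Rps27 (1110 CPM per kb), Rplp1 (753), Rpl32 (680), Rpl37a (515) and Rpl36 (496). Among the members tested, the lowest were those of Rpl7l1 (6.19 CPM per kb), Rps4y2 (6.27), Rps19bp1 (7.76), Rps19 (16.9) and Rpl35a (24.8). The values of Rps19 and Rpl35a rest on exon models of 4685 and 3526 bases in all, and per median length of their protein-coding transcripts they were 124 and 171 CPM per kb. Rps27 stayed the highest and Rpl7l1, Rps4y2 and Rps19bp1 the lowest of the tested members on both scales of length.

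The 34 Rps symbols together took fewer reads than the 52 Rpl symbols in every library. These sums depend on the number of symbols, so their ratio does not give the level of a single gene. The counts on Rps symbols divided by those on Rpl symbols were 0.692 and 0.735 in SCs, 0.685 and 0.713 in cHCs, 0.589 and 0.619 in OHCs (P7), 0.620 and 0.575 in IHCs and 0.513 and 0.662 in OHCs (P22). All 4 SC and cHC libraries lay above the 6 others. The median log2 fold change between OHCs (P22) and SCs was -2.34 for the 34 Rps members and -1.85 for the 49 Rpl members tested, and between IHCs and SCs it was -1.75 and -1.36.

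A joint test asked which members differed anywhere among the 5 cell types. In the quasi-likelihood F-test of edgeR, with p values adjusted over all 16891 genes tested and a threshold of 0.05, 13 of the 83 members passed (15.7%), against 7.81% of all genes. They were 7 of the large subunit (Rpl31, Rpl10, Rpl11, Rpl41, Rpl37, Rpl34 and Rpl36) and 6 of the small subunit (Rps25, Rps28, Rps20, Rps3a, Rps27 and Rps12). DESeq2 called 42 and limma-voom 25, against 26% and 13.5% of all genes. The median dispersion, edgeR's measure of the spread between libraries of a type, was 0.224 over the members tested and 1.06 over all genes tested. Wherever members are set beside the share of all genes, that share therefore does not come from genes of like spread. In all 13 the highest mean was in SCs. Each of the 13 was also lower in OHCs (P22) than in SCs with an adjusted p under 0.05. Without SC replicate 11 only 5 members passed, and without the P22 library of OHCs (P22) 24 did. Leaving out any of the P74 library of IHCs or the OHC (P7) replicates gave 8.

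Rps25 (mm9 chr9:44215797-44218488), a small-subunit protein needed for some cap-independent initiation, had the smallest p in the joint test. Rps25 was at 588 and 578 CPM in SCs, 376 and 344 in cHCs, 280.3 and 315 in OHCs (P7), 89.9 and 108 in OHCs (P22) and 116 and 122 in IHCs. SCs lay above all other types, and the libraries of OHCs (P22) and IHCs lay below those of the other 3 types. Its log2 fold change was -2.56 ± 0.44 (SE) in OHCs (P22) over SCs (adjusted p = 0.00529), -2.29 ± 0.43 in IHCs over SCs (adjusted p = 0.0173) and -1.86 ± 0.43 in OHCs (P22) over cHCs (adjusted p = 0.0412). The joint adjusted p was 0.0128.

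The 2 SC libraries held 301 and 207 CPM of Rps28, those of cHCs 136 and 138, of OHCs (P7) 149.5 and 190.3, of OHCs (P22) 36.4 and 31.9, and of IHCs 44.2 and 38.4. Rps28 sits at the site where mRNA leaves the small subunit. In OHCs (P22) it differed from SCs by -2.89 ± 0.54 (SE) on the log2 scale (adjusted p = 0.00820) and -2.62 ± 0.54 in IHCs over SCs (adjusted p = 0.0258). Levels of Rps20 were 651 and 362 CPM in SCs, 189 and 196 in cHCs, 200.1 and 203 in OHCs (P7), 42.6 and 72.2 in OHCs (P22), and 110.3 and 131 in IHCs. Rps20 lies in the head of the small subunit, and its 2 SC libraries were above all others. The log2 fold change of Rps20 in OHCs (P22) over SCs was -3.14 ± 0.54 (SE, adjusted p = 0.00524). For Rps3a, the replicates gave 727 and 469 CPM in SCs, 319 and 385 in cHCs, 289 and 241 in OHCs (P7), 52.9 and 114 in OHCs (P22), and 64.4 and 128 in IHCs. Rps3a is part of the platform of the small subunit, and in it the libraries of OHCs (P22) and IHCs overlapped and lay below all others. Its log2 fold change was -2.84 ± 0.58 (SE) in OHCs (P22) over SCs (adjusted p = 0.0127) and -2.64 ± 0.57 in IHCs over SCs (adjusted p = 0.0355).

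Rps27 was at 1014 and 700.4 CPM in SCs, 469 and 246 in cHCs, 313 and 318 in OHCs (P7), 141 and 153 in OHCs (P22) and 216 and 257 in IHCs. Rps27 is a zinc-finger protein of the small subunit, whose start window is printed above. In OHCs (P22) it differed from SCs by -2.54 ± 0.48 (SE) on the log2 scale (adjusted p = 0.00859). The 2 SC libraries held 172 and 201 CPM of Rps12, those of cHCs 44.9 and 41.9, of OHCs (P7) 59.1 and 37.1, of OHCs (P22) 21 and 15.8, and of IHCs 45.0 and 33.9. In Rps12, a protein of the beak of the small subunit, SCs stood above all other types, which overlapped in part. The log2 fold change of Rps12 in OHCs (P22) over SCs was -3.35 ± 0.68 (SE, adjusted p = 0.0123). The value for Rps12 between cHCs and SCs, -2.11 ± 0.64 (SE), was the lowest of the members there and did not pass (adjusted p = 0.162).

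Of the large-subunit members, Rpl31 (mm9 chr1:39424696-39428753), which lies at the exit of the peptide tunnel, fell furthest of the 13. Levels of Rpl31 were 634 and 469 CPM in SCs, 315 and 147 in cHCs, 218 and 148 in OHCs (P7), 27.3 and 55.5 in OHCs (P22), and 137 and 167 in IHCs. The OHC (P22) libraries lay below all others, and the IHC libraries overlapped with cHCs and OHCs (P7). Its log2 fold change was -3.73 ± 0.62 (SE) in OHCs (P22) over SCs (adjusted p = 0.00436) and -2.48 ± 0.58 in OHCs (P22) over cHCs (adjusted p = 0.0457). For Rpl10, the replicates gave 394 and 325 CPM in SCs, 156 and 105 in cHCs, 92.8 and 97.9 in OHCs (P7), 34.3 and 34.6 in OHCs (P22), and 54.8 and 117 in IHCs. Rpl10 joins the large subunit late in its maturation. In OHCs (P22) it differed from SCs by -3.38 ± 0.59 (SE) on the log2 scale (adjusted p = 0.00585). Rpl11 was at 324 and 279.8 CPM in SCs, 112 and 86 in cHCs, 93.2 and 86.6 in OHCs (P7), 38.1 and 45.4 in OHCs (P22) and 61.0 and 72.5 in IHCs. Rpl11 forms a particle with Rpl5 and the smallest ribosomal RNA of the large subunit and binds Mdm2 when ribosome assembly is disturbed. The log2 fold change of Rpl11 in OHCs (P22) over SCs was -2.85 ± 0.54 (SE, adjusted p = 0.00872). Its partner Rpl5 did not pass in any of the 8 comparisons, with -1.48 ± 0.65 (SE, adjusted p = 0.184) between OHCs (P22) and SCs.

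The 2 SC libraries held 2298 and 1056 CPM of Rpl41, those of cHCs 852 and 959.7, of OHCs (P7) 902 and 925, of OHCs (P22) 382 and 241, and of IHCs 423 and 421. SC replicate 11 was far above replicate 12 for Rpl41, which still lay above all other types. Its log2 fold change was -2.43 ± 0.47 (SE) in OHCs (P22) over SCs (adjusted p = 0.00934) and -1.99 ± 0.46 in IHCs over SCs (adjusted p = 0.0462). Levels of Rpl34 were 262 and 175 CPM in SCs, 55.9 and 104 in cHCs, 66.2 and 119 in OHCs (P7), 32.3 and 36.4 in OHCs (P22), and 31.5 and 29.4 in IHCs. The IHC and OHC (P22) libraries were the lowest for Rpl34. In OHCs (P22) it differed from SCs by -2.67 ± 0.64 (SE) on the log2 scale (adjusted p = 0.0288) and -2.84 ± 0.65 in IHCs over SCs (adjusted p = 0.0448). Rpl37 and Rpl36, the remaining members of the joint test, had log2 fold changes of -3.02 and -2.22 between OHCs (P22) and SCs.

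**Figure D2:**
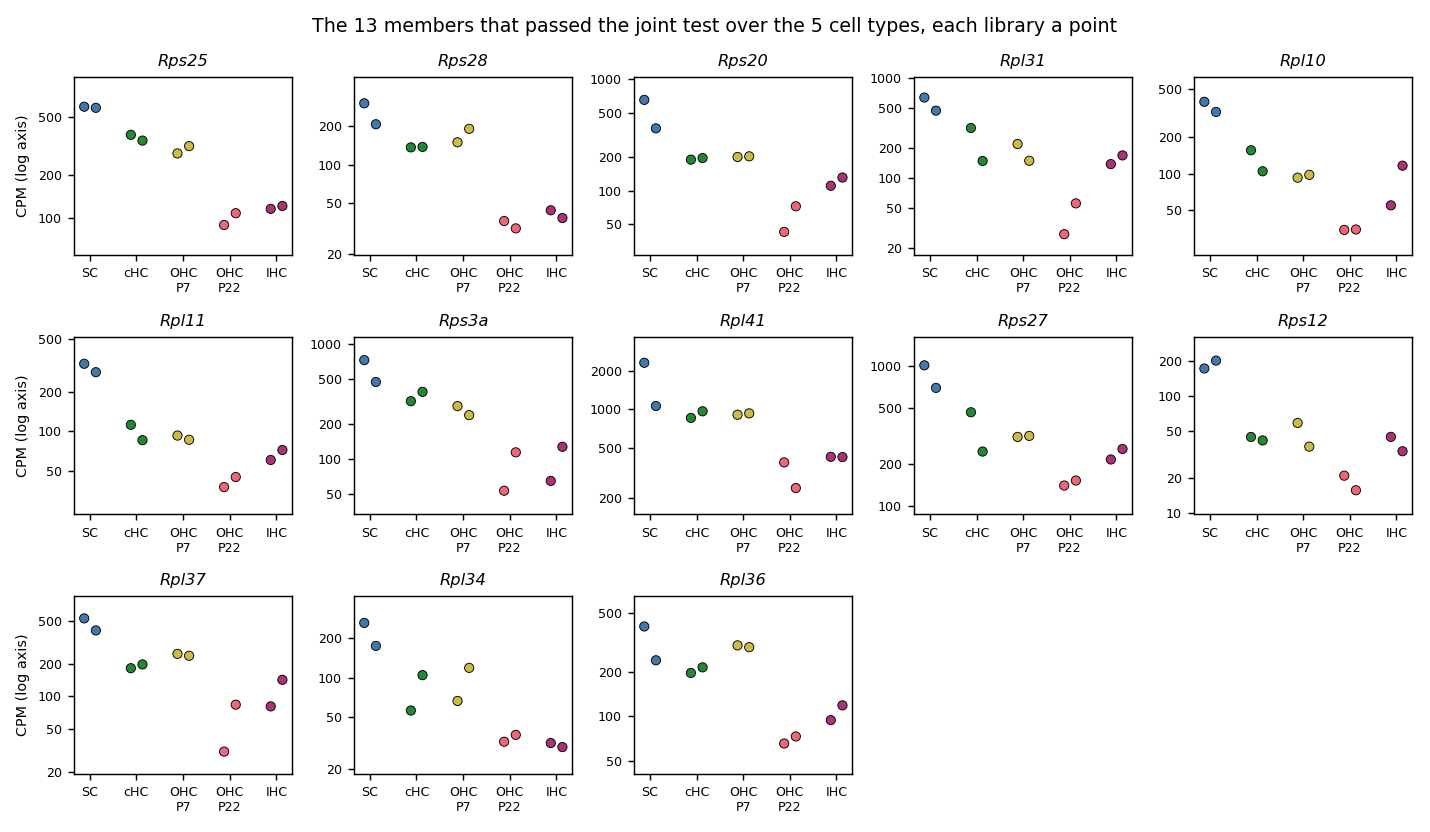
TMM-scaled CPM (log axis) of the 13 members that passed the joint test, with 1 point for each library and 2 libraries for each cell type. The mean of SCs is the highest in every panel, but for Rpl36 SC replicate 12 (240 CPM) lies below both OHC (P7) libraries (302 and 294 CPM). OHCs (P22) and IHCs are the lowest types in most.

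OHCs (P22) against SCs, the comparison of a mature hair cell with the supporting cell, gave most of the calls. With edgeR, 37 of 83 members (44.6%) were lower in OHCs (P22), against 4.0% of all genes, and 0 were higher, against 4.01% of all genes. How far the lower median dispersion of the members (0.224, against 1.06 over all genes) entered these shares was not tested. No member was higher at an unadjusted p under 0.05 (0), and DESeq2 and limma-voom called 0 higher as well, and 55 and 35 lower, against 12.2% and 5.63% of all genes. Of the 37, 20 were among the 34 small-subunit members and 17 among the 49 large-subunit members tested. Their log2 fold changes ran from -1.84 to -4.25, which is 3.59 to 19.0 times lower, with a median of -2.56. In each of the 37, both SC libraries lay above both OHC (P22) libraries, as they did in 78 of the 83 members and in 25.3% of all genes. The median over the 83 members was -1.96, against 0.00 over all genes tested. Without SC replicate 11 only 12 members passed, and without the P21 library of OHCs (P22) only 14, all of them among the 37. A fit of these 4 libraries alone called 10.

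The largest falls in this comparison were those of Rpl22l1, Rpl31 and Rps26. For Rps26, the replicates gave 343 and 202 CPM in SCs, 160.2 and 142 in cHCs, 140.4 and 106 in OHCs (P7), 9.26 and 37.7 in OHCs (P22), and 29.6 and 75.7 in IHCs. Rps26 touches the mRNA upstream of the start codon. The log2 fold change of Rps26 in OHCs (P22) over SCs was -3.53 ± 0.80 (SE, adjusted p = 0.0211). Among members with special roles, Rplp0, the base of the stalk that binds translation factors, changed by -3.43 ± 0.78 (SE, adjusted p = 0.0224), and Rplp1, also of the stalk, by -1.96 ± 0.49 (adjusted p = 0.0330). The third stalk protein, Rplp2, did not pass, with -1.63 ± 0.58 (adjusted p = 0.113). Rps6 fell by 2.14 ± 0.54 on the log2 scale (adjusted p = 0.0346), Rps27a, made as a fusion with ubiquitin, by 2.59 ± 0.61 (adjusted p = 0.0257), and Rps19, the gene mutated most often in Diamond-Blackfan anaemia, by 3.25 ± 0.76 (adjusted p = 0.0252). Rpsa, which is also known as a laminin receptor, had a value of -0.95 ± 0.60 and did not pass (adjusted p = 0.336).

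In IHCs against SCs the calls were again all lower. In edgeR 5 members were lower (Rps25, Rps28, Rps3a, Rpl34 and Rpl41), or 6.02% of those tested against 0.42% of all genes, and all 5 were among the 37 of the previous comparison. The count depended on the tool: DESeq2 called 31 lower and limma-voom 29, against 5.58% and 2.2% of all genes. Both IHC libraries lay below both SC libraries in 73 of 83 members and in 22.3% of all genes. The median over members was -1.55, against 0.00 over all genes. No member was called higher (0, also at an unadjusted p under 0.05 and with DESeq2 and limma-voom). The count rested on single libraries: it was 0 without either IHC replicate, 1 without SC replicate 11, 2 without either OHC (P7) replicate, 15 without the P21 library of OHCs (P22) and 13 without the P22 library of OHCs (P22). The OHC libraries are not part of this comparison, but they enter the shared estimate of the spread and the low-count filter, and which of these moved the count was not tested.

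cHCs are the cells that started as SCs and were turned towards hair cells by Atoh1-HA. Against SCs, 76 of 83 members had a lower and 7 a higher fitted level in cHCs, with a median of -0.76 (0.03 over all genes), but edgeR called 0 members, against 1.84% of all genes. At an unadjusted p under 0.05 there were 16 (19.3% of members, 15% of all genes), 15 of them lower. Without SC replicate 11 the median was -0.41. DESeq2 called 2 and limma-voom 9, all lower, against 10.4% and 6.31% of all genes. Both cHC libraries lay below both SC libraries in 47 members (56.6%) and in 20.4% of all genes.

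For OHCs (P7) against SCs the median was -0.80 (0.00 over all genes), 69 members were lower and 14 higher, and edgeR called 0, against 3.41% of all genes. Unadjusted p values were under 0.05 in 16 members (19.3%, against 18.9% of all genes). DESeq2 called 5, of which 1 was higher, and limma-voom called 9, all lower, against 15.9% and 6.94% of all genes. Both OHC (P7) libraries lay below both SC libraries in 48 members and in 22.6% of all genes. Without SC replicate 11 the median was -0.35. The smallest adjusted p belonged to Rps14 (-1.89 ± 0.48, SE, adjusted p = 0.0604), a protein of the small-subunit platform.

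Between cHCs and OHCs (P7) no member passed the test. The median log2 fold change of OHCs (P7) over cHCs was 0.05 (-0.09 over all genes) and changed sign with library totals or RLE factors in place of TMM (-0.23 and -0.04). edgeR, DESeq2 and limma-voom called 0 members, against 0.343%, 6.66% and 2.24% of all genes, and 1 member, Rplp1, had an unadjusted p under 0.05. Rplp1 was at 649.9 and 386.8 CPM in SCs, 219 and 313 in cHCs, 610.1 and 737 in OHCs (P7), 102 and 164 in OHCs (P22) and 229 and 314 in IHCs. The 2 OHC (P7) libraries lay above both cHC libraries for Rplp1, and its log2 fold change was 1.34 ± 0.48 (SE, adjusted p = 0.353). The quartiles of the 83 members were -0.28 and 0.33.

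OHCs (P22) against cHCs gave 4 calls in edgeR, all lower (4.82% of members, against 2.02% of all genes). Among them were Rps13, Rps25 and Rpl31. The 2 SC libraries held 244 and 94.9 CPM of Rps13, those of cHCs 99.2 and 175, of OHCs (P7) 78.1 and 114, of OHCs (P22) 22.2 and 12.6, and of IHCs 45.7 and 49.2. For Rps13, a protein of the small subunit, the cHC libraries overlapped with SCs and lay above both OHC (P22) libraries. Its log2 fold change was -2.98 ± 0.71 (SE) in OHCs (P22) over cHCs (adjusted p = 0.0475). The median was -1.33 (-0.19 over all genes), and both OHC (P22) libraries lay below both cHC libraries in 74 members and in 28.1% of all genes. DESeq2 called 22 and limma-voom 2, all lower, against 10.2% and 3.33% of all genes. The 4 calls became 0 without the P21 library of OHCs (P22), 1 without either cHC replicate, 2 without OHC (P7) replicate 15, 8 without either SC replicate and 12 without the P22 library of OHCs (P22).

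Age in OHCs was compared between P7 and P22, which belong to different number series. The median was -1.41 at P22 over P7 (-0.04 over all genes), 81 members were lower and 2 higher, and both OHC (P22) libraries lay below both OHC (P7) libraries in 73 members and in 23.6% of all genes. edgeR called 0 members, against 0.551% of all genes. DESeq2 called 20, all lower (9.71% of all genes), limma-voom 0 (0.651% of all genes), and 46 members had an unadjusted p under 0.05 in edgeR (55.4%, against 13.9% of all genes), all of them lower. The smallest adjusted p was that of Rplp1 (-2.34 ± 0.50, SE, adjusted p = 0.0715). Without the P22 library of OHCs (P22) edgeR called 4, and 1 without SC replicate 11, SC replicate 12 or cHC replicate 13.

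IHCs and OHCs (P22), both mature hair cells, belong to the same number series. The median was 0.54 in IHCs over OHCs (P22) (0.03 over all genes), with 74 members higher and 9 lower, and both IHC libraries lay above both OHC (P22) libraries in 41 members and in 24.1% of all genes. edgeR called 0 members (1.46% of all genes), DESeq2 2 in opposite directions (12.1% of all genes) and limma-voom 0 (1.77% of all genes), and 6 had an unadjusted p under 0.05 in edgeR (7.23%, against 15.2% of all genes). Without the P22 library of OHCs (P22) edgeR called 3.

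**Figure D3:**
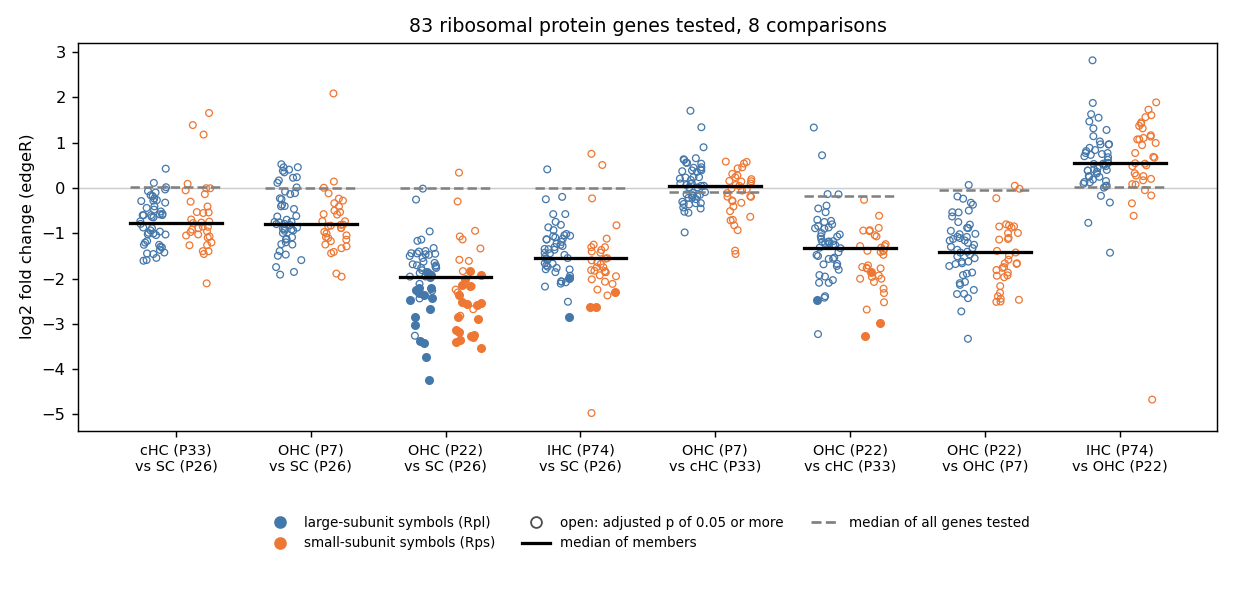
Log2 fold changes (edgeR) of the 83 members in 8 comparisons, with Rpl members in blue and Rps members in orange. Filled points have an adjusted p under 0.05, solid lines mark the median of members and dashed lines that of all genes tested. The filled points sit below 0 and most of them, 37, are in OHCs (P22) over SCs.

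Fold changes were set beside the level and length of each member. Across the 83 members, Spearman's rho between the mean level and the log2 fold change lay between -0.27 and 0.15 in the 8 comparisons, and that with the median transcript length (82 members) between -0.12 and 0.20. These are descriptions across genes that share the same 10 libraries. Members departed from the median of the family by a median of 0.32 to 0.51 on the log2 scale, depending on the comparison. The median SE of a single member was 0.57 to 0.59. A median departure and an SE are different measures, so their order does not show whether the departures exceeded the error.

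With the summed counts of the family as the library size, so that a change is relative to the family, 1 member stood out. Rps18 (mm9 chr17:34088944-34092946), a protein of the head of the small subunit, passed in OHCs (P7) over SCs (2.91 ± 0.71, SE, adjusted p = 0.0490) and in OHCs (P22) over SCs (2.50 ± 0.70, adjusted p = 0.0295), against 3.49% and 19.1% of all genes called higher on that scale. Levels of Rps18 were 69.5 and 21.4 CPM in SCs, 128 and 158 in cHCs, 198 and 188 in OHCs (P7), 65.5 and 49.4 in OHCs (P22), and 84.8 and 44.4 in IHCs. Rps18 was lowest in SC replicate 12 and highest in OHCs (P7), whose libraries lay above all others. On the main scale it did not pass in any comparison, with 2.09 ± 0.69 in OHCs (P7) over SCs (adjusted p = 0.141). For Rpl18, the replicates gave 244 and 151 CPM in SCs, 92.5 and 145 in cHCs, 159 and 215 in OHCs (P7), 334 and 56.9 in OHCs (P22), and 69.9 and 75.2 in IHCs. Rpl18, which sits on the solvent side of the large subunit, had its highest level in the P21 library and its lowest in the P22 library, so the spread within OHCs (P22) covered the whole range.

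**Figure D4:**
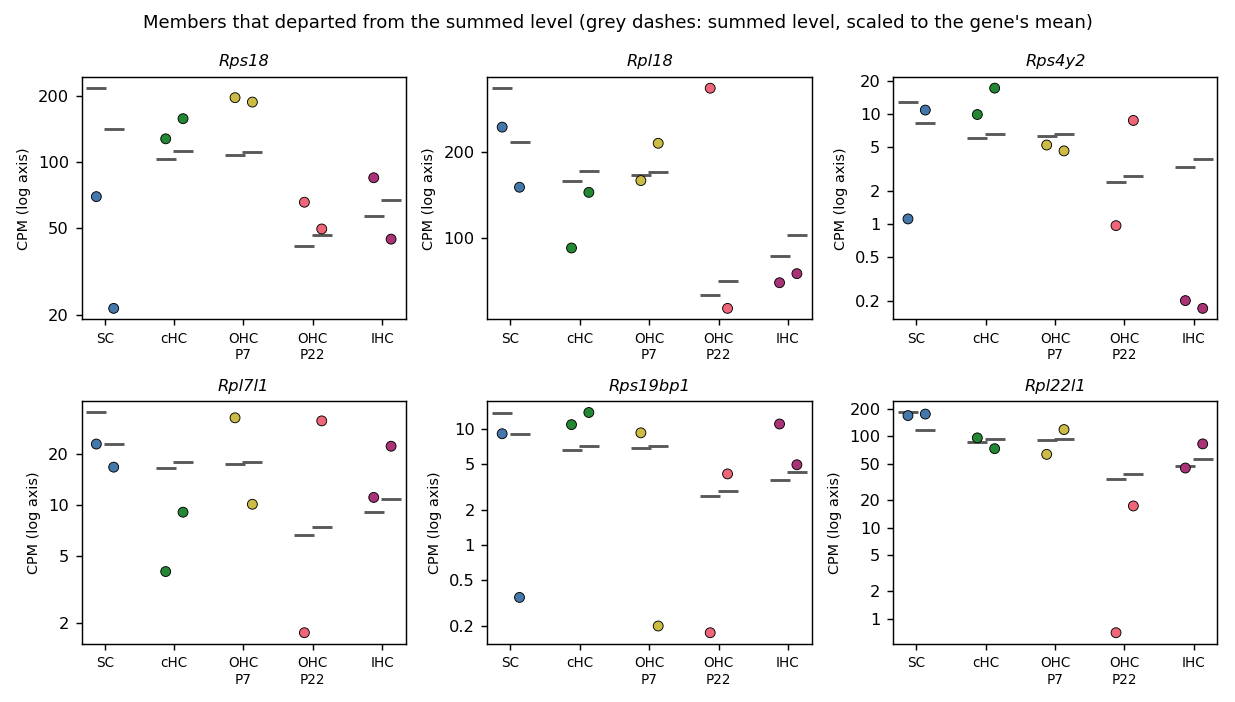
TMM-scaled CPM (log axis) of 6 members in each library, beside grey dashes for the summed level of the family scaled to the mean of the gene. Rps18 lies below the dashes in SCs and above them in OHCs (P7), Rpl22l1 is lowest in the P21 library, and Rps4y2 lies far below the dashes in both IHC libraries.

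The paralogs were next. Rpl10l, Rpl39l and Rpl3l, paralogs known from germ cells, striated muscle or both, were not tested: Rpl10l and Rpl39l had 0 counts in all libraries, and Rpl3l had 22 counts in SC replicate 11, 2 in the P75 library of IHCs and 0 elsewhere. A count of 0 allows a level of up to 0.074 CPM in the deepest library and 0.2 CPM in the shallowest (3 counts of the total, before scaling and for counting error only). Rpl22l1 was at 168 and 175 CPM in SCs, 95.8 and 73.0 in cHCs, 63.3 and 118 in OHCs (P7), 0.705 and 17.2 in OHCs (P22) and 44.8 and 82.4 in IHCs. Rpl22l1 (mm9 chr3:28704358-28706274), the paralog of Rpl22, had 8 counts in the P21 library and 409 in the P22 library, a wide split within OHCs (P22). In OHCs (P22) it differed from SCs by -4.25 ± 1.17 (SE) on the log2 scale (adjusted p = 0.0494). Without the P22 library the value was -7.92 and without the P21 library it was -3.38, where it did not pass. The 2 SC libraries held 256 and 146 CPM of Rpl22, those of cHCs 148 and 133, of OHCs (P7) 108 and 152, of OHCs (P22) 62.1 and 61.1, and of IHCs 68.1 and 58.5. Rpl22 had a value of -1.71 ± 0.55 between the same groups and did not pass (adjusted p = 0.0829).

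Levels of Rps27l were 91.8 and 94.4 CPM in SCs, 47.4 and 30.1 in cHCs, 56.0 and 50.2 in OHCs (P7), 15.3 and 13.8 in OHCs (P22), and 47.9 and 27.4 in IHCs. Rps27l, a target of p53, is the paralog of Rps27, and its value of -2.68 ± 0.75 between OHCs (P22) and SCs lay just outside the threshold (adjusted p = 0.0530). For Rpl7l1, the replicates gave 22.8 and 16.7 CPM in SCs, 4.04 and 9.04 in cHCs, 32.5 and 10.1 in OHCs (P7), 1.76 and 31.2 in OHCs (P22), and 11.1 and 22.1 in IHCs. For Rpl7l1, which acts in assembly of the large subunit, the 2 libraries lay far apart in cHCs, OHCs (P7) and OHCs (P22). Its partner Rpl7 did not pass in any comparison either, and had -1.45 ± 0.58 between OHCs (P22) and SCs (adjusted p = 0.154). Rpl36al and Rpl36a, a pair of near-identical proteins, had -1.68 ± 0.64 and -1.82 ± 0.77 there, with adjusted p = 0.134 and 0.170. Reads of such pairs may be divided between them by the counting.

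Rps4y2 was at 1.12 and 10.9 CPM in SCs, 9.91 and 17.2 in cHCs, 5.24 and 4.63 in OHCs (P7), 0.970 and 8.76 in OHCs (P22) and 0.202 and 0.172 in IHCs. Rps4y2, an autosomal gene (mm9 chr6:148303178-148304120) for which RefSeq gives Rps4l as another name, was at 6 and 5 counts in the IHC libraries and at 11 and 208 in those of OHCs (P22). Its value was -4.97 ± 2.04 in IHCs over SCs (adjusted p = 0.248), and its 2 SC libraries lay far apart. The partner Rps4x fell by 2.001 ± 0.47 in OHCs (P22) (adjusted p = 0.0251). Rpl3, Rpl26 and Rpl39 had -1.46 ± 0.57, -2.47 ± 0.62 and -2.21 ± 0.51 there, of which Rpl26 and Rpl39 passed (adjusted p = 0.138, 0.0328 and 0.0240). Rps19bp1, with 2 to 550 counts, had adjusted p values of 0.564 or more.

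Other genes of the pathway were taken as lists. Of 17 other TOP mRNAs, mostly of translation factors, 3 passed the joint test, against 7.81% of all genes: Eef1a1, Pabpc1 and Tpt1. The 2 SC libraries held 2494 and 1437 CPM of Eef1a1, those of cHCs 1214 and 1160.0, of OHCs (P7) 1148 and 1023, of OHCs (P22) 185 and 261, and of IHCs 512 and 662. Eef1a1, the elongation factor that brings aminoacyl-tRNA to the ribosome, was lower in OHCs (P22) than in SCs, cHCs and OHCs (P7) (-3.14 ± 0.43, -2.41 ± 0.42 and -2.29 ± 0.42, SE, with adjusted p = 0.00157, 0.0124 and 0.0461). Levels of Eef1a2 were 0.00 and 0.00 CPM in SCs, 0.0425 and 0.0508 in cHCs, 0.00 and 0.134 in OHCs (P7), 1.06 and 0.505 in OHCs (P22), and 4.01 and 1.55 in IHCs. Eef1a2 is the isoform of adult muscle and neurons, and it was not called in any comparison. The poly(A)-binding protein gene Pabpc1 was lower in OHCs (P22) than in SCs (-2.62 ± 0.51, adjusted p = 0.0107). Tpt1 was lower in OHCs (P22) and in cHCs than in SCs (-2.08 ± 0.42 and -2.03 ± 0.42, adjusted p = 0.0122 and 0.0352). The median of the 17 was -0.83 between OHCs (P22) and SCs and -0.88 between IHCs and SCs.

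Of 79 mitochondrial ribosomal proteins tested, which build the ribosomes inside mitochondria, edgeR called 0 in the joint test and in each of the 8 comparisons, with 1 to 5 at an unadjusted p under 0.05. Of all genes, edgeR called 7.81% in the joint test and 0.343% to 8.02% in a comparison. In 11.15% to 25.69% of all genes the unadjusted p was under 0.05. DESeq2 called 0 to 7 and limma-voom 0 or 1 in a comparison, against 6.66% to 24.6% and 0.651% to 11.2% of all genes. Their median was -0.67 between OHCs (P22) and SCs, and 28 of the 79 had both OHC (P22) libraries below both SC libraries, against 25.3% of all genes. Of 29 genes of ribosome biogenesis, such as nucleolar assembly factors, edgeR likewise called 0, with 0 to 2 at an unadjusted p under 0.05, DESeq2 called 0 or 1 in a comparison and limma-voom 0. The median of the 29 between OHCs (P22) and SCs was 0.40, and the shares of all genes called were those given above. Their SEs in that comparison ran from 0.41 (Ncl) to 2.6 (Rrp9), beside a median of 0.59 over the cytosolic members. For the 79 as for the 29, the absence of a call does not show that a gene was unchanged. Fau, a ribosomal protein made as a fusion with a ubiquitin-like part, which the symbol rule does not take in, did not pass (-1.73 ± 0.73, SE, between OHCs (P22) and SCs, adjusted p = 0.170). Of 14 regulators of TOP mRNAs and mTOR signalling, Rptor and Mycl1 passed the joint test, against 7.81% of all genes. Between OHCs (P22) and SCs Rptor was higher and Mycl1 and Mycn were lower, against 4.01% and 4.0% of all genes. Rptor, the subunit of mTORC1 that binds its substrates, was at 25.2 and 47.9 CPM in SCs and at 544 and 102 CPM in OHCs (P22) (3.14 ± 0.87, adjusted p = 0.04995). Mycl1, a transcription factor of the Myc family, was at 6.08 and 74.3 CPM in SCs, 119 and 211 in cHCs and 129 and 62.2 in OHCs (P7). It was at 2 and 0 counts in the OHC (P22) libraries and at 7 and 1 counts in the IHC libraries, which belong to the same number series. In IHCs, too, Mycl1 was lower than in SCs (-8.16 ± 1.65, SE, adjusted p = 0.0244), against 0.42% of all genes.

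**Figure D5:**
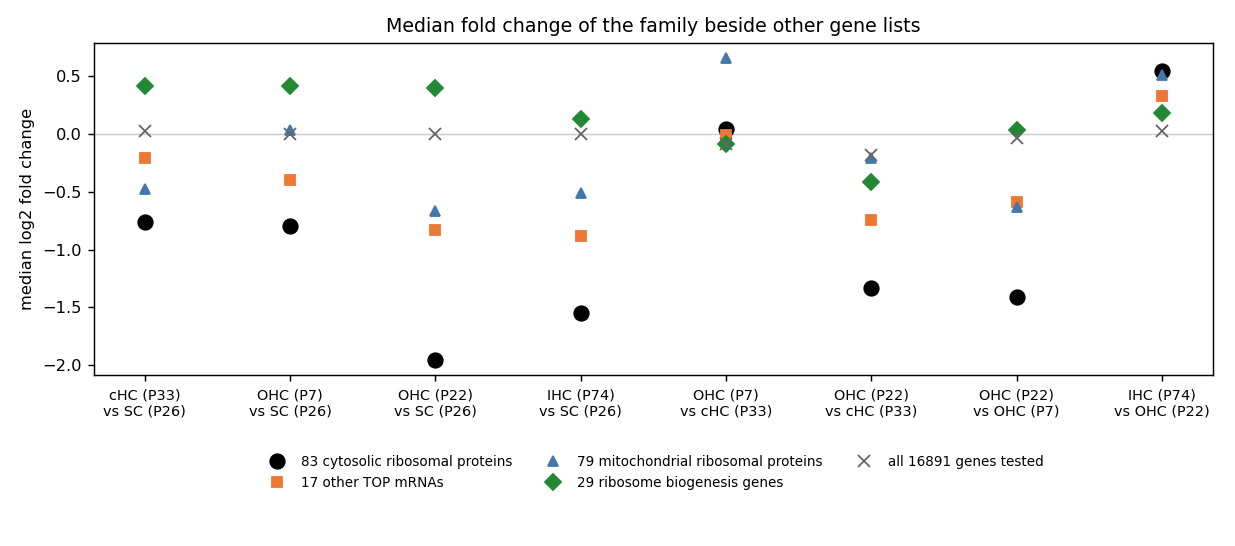
Median log2 fold change of the 83 members, of 3 other lists and of all 16891 genes tested in the 8 comparisons. The median of the members lies below those of the other lists in the 4 comparisons with SCs and in both comparisons of OHCs (P22) with cHCs and OHCs (P7).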

How the data were processed

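RNA of the picked cells was amplified to cDNA and sequenced as paired ends. Per the labels and the study's methods, the authors called bases with CASAVA 1.7, trimmed adapters with Cutadapt, mapped reads to mm9 with STAR and BWA and deposited raw counts per gene symbol made with HTSeq. How reads with several alignments were treated is not given in the sources used here, and all files list 0 of them, although many members have pseudogenes of similar sequence. Amplification without molecular identifiers means that reads are not independent molecules. The files of 4 of the 10 libraries are attached to the record of another library. Each was given to the library whose title its name carries, and this was checked against the per-library values of the study's supplementary table, which were proportional to the counts only under this assignment.

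Counts were scaled with TMM factors and tested in edgeR 4.0.16 by quasi-likelihood F-tests (R 4.3.3) after its low-count filter, in 1 model of all 10 libraries, with Benjamini-Hochberg adjustment over 16891 genes and a threshold of 0.05. The study used TMM with limma-voom. limma 3.58.1 and DESeq2 1.42.0, other size factors and filters, the files as attached and each library left out were alternatives. SEs were derived from the fold change and its F value. Adjusted p values come from edgeR unless another tool is named. The script was tested on simulated data. p values set a difference between types against the spread between libraries of the same type, estimated over all types in the model. Levels per length used exons of the mm9 annotation.

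Genes named with values were the members with the smallest joint p, the largest changes of each comparison, the ends of the order per length, the paralogs and special members, and those least like the family. The members, gene lists and this rule were chosen with earlier results of these data known. Some genes that the rule or the lists take in are not reported here by name.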

Additional observations from a re-analysis of the deposited data

Results flagged for a closer look

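Reads on the pseudogene symbols of the family, which enter none of the comparisons above, were present in every library, from 7377 counts in the P21 library of OHCs (P22) to 139801 in SC replicate 11. They came to 9.72% to 13.1% of the counts on the members. Of 172 such symbols 142 had a count, and the highest was Rpl10a-ps1, with 224 and 160 CPM in SCs, 154 and 165 in cHCs, 236 and 219 in OHCs (P7), 20.4 and 25.8 in OHCs (P22) and 37.3 and 24.7 in IHCs. How many of these reads came from the members themselves was not tested.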

How the results depend on the processing

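The fold changes of the 21 named calls kept their direction under all alternatives run. All 21 lost significance when files stayed with the records they are attached to and with the summed counts of the family as library size. In all, 73 of 209 such values under other settings and 47 of 210 with 1 library left out did not pass.

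The members called are given here with the percent of all genes called in either direction under the same setting in brackets. Further above, the calls in OHCs (P22) over SCs, IHCs over SCs and OHCs (P22) over cHCs were set beside the percent called lower only. With the files as attached no gene was called in any comparison (0 members, 0.0% of all genes). The joint test (13 members, 7.81%) gave 42 with DESeq2 (26%), 25 with limma-voom (13.5%), 34 without the low-count filter (17.4%), 34 with at least 10 counts in every library (11.4%), 8 with library totals (7.08%), 0 with the family's sum as library size (17.1%) and 6 with the form of the title as a term (5.96%). For cHCs over SCs (0, 1.84%) it was 2 with DESeq2 (10.4%) and 9 with limma-voom (6.31%). For OHCs (P7) over SCs (0, 3.41%) it was 5 with DESeq2 (15.9%), 9 with limma-voom (6.94%), 1 with at least 10 counts (4.63%) and 1 with the family's sum (3.88%). For OHCs (P22) over SCs (37 lower, 8.02%) it was 10 with only these types (7.74%). With the family's sum (21.4%) none (0) of the 37 passed there, and the 1 member called was Rps18, which was higher. For IHCs over SCs (5, 2.65%) it was 31 with DESeq2 (13.6%), 29 with limma-voom (6.23%), 11 without the filter (5.21%), 13 with at least 10 counts (4.73%), 3 with the title term (2.23%), 1 with only these types (2.35%), and 0 with library totals (2.66%) or the family's sum (7.4%). For OHCs (P22) over cHCs (4, 3.18%) it was 22 with DESeq2 (16.1%), 2 with limma-voom (5.51%), 13 without the filter (6.79%), 14 with at least 10 counts (5.21%), 2 with RLE factors (3.18%), 7 with library totals (3.3%), 1 with the title term (2.5%), and 0 with the family's sum (7.29%) or only these types (2.17%). For OHCs (P22) over OHCs (P7) (0, 0.551%) it was 20 with DESeq2 (9.71%), 13 without the filter (3.6%) and 4 with at least 10 counts (1.58%). For IHCs over OHCs (P22) (0, 1.46%) it was 2 with DESeq2 (12.1%) and 1 without the filter (4.94%). The cause of these changes was not tested.

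With 1 library left out, these counts ran from 5 to 24 in the joint test, 12 to 35 for OHCs (P22) over SCs, 0 to 15 for IHCs over SCs, 0 to 12 for OHCs (P22) over cHCs, 0 to 4 for OHCs (P22) over OHCs (P7), 0 to 3 for IHCs over OHCs (P22) and 0 to 1 for OHCs (P7) over SCs.

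The median of members with the files as attached was 0.47 for cHCs over SCs, -0.15 for OHCs (P7) over SCs, -0.99 for IHCs over SCs, -0.63 for OHCs (P7) over cHCs and -1.89 for OHCs (P22) over cHCs. OHCs (P7) over cHCs had -0.039 with RLE factors and -0.23 with library totals, and OHCs (P22) over cHCs -1.80 with library totals, which moved the median of all genes there to -0.60. With 1 library left out the medians ran from -1.058 to -0.413 for cHCs over SCs, -1.003 to -0.349 for OHCs (P7) over SCs, -0.107 to 0.082 for OHCs (P7) over cHCs and -1.79 to -1.28 for OHCs (P22) over OHCs (P7).

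The share of the family was 3.29% in SCs, 2.40% in cHCs, 2.15% in OHCs (P7) and 1.16% in IHCs without mitochondrial genes, and 3.45%, 2.43%, 2.20% and 1.22% without the 10 most abundant genes. It was 2.17% in cHCs and 1.66% in OHCs (P7) with the files as attached, and 1.99% and 1.69% with pseudogene symbols added, an alternative chosen after seeing the data. No paired analysis was possible because replicate numbers are not shared between groups.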
